A study of Arabidopsis thaliana with 4 samples.

Results

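Expansins and xyloglucan endotransglucosylase/hydrolases (XTHs) are the 2 families of secreted proteins described here, in Arabidopsis thaliana seedlings of the uba2c mutant and of the wild type. The members were fixed by gene identifier, as expansin and expansin-like genes followed by XTH genes, with the 6 root hair members EXPA7, EXPA18, XTH12, XTH13, XTH14 and XTH26 kept apart. All 47 members were found among the 32548 genes of the table, as 17 alpha-expansins, 3 beta-expansins, 4 expansin-like genes and 23 XTHs. RNA was sequenced from 2 uba2c libraries, labelled homozygous for the mutation, and from 2 libraries of the wild type accession Col-0. All seedlings had grown on plates for 2 weeks, at 23 °C during the 16 h of light and at 22 °C during the 8 h of darkness. The labels name no allele, lesion or time of harvest. They do not say whether replicates were separate plants, and the p-values therefore describe the spread of these samples, which could be technical. In whole seedlings, fewer cells of a type and less RNA per cell cannot be told apart.

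Growing plant cells are held in by cellulose fibrils tethered by xyloglucan, a branched glucan, in a pectin gel. Expansins loosen the contacts between cellulose and xyloglucan without cutting either, and work best in an acid wall, so they are linked to proton pumping at the plasma membrane. XTHs cut a xyloglucan chain and either join it to another chain or, in a few members, to water. Both families are large, are expressed in different organs and cell types, and include many genes known to respond to auxin, brassinosteroid, light and touch.

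The deposited value of a gene is its read count after the authors had equalised library sizes, called the adjusted count here. The libraries summed to between 19098122 and 19438684 adjusted counts, and to between 19720586 and 19847651 reads when the whole reads behind the values were recovered. UBA2C itself stood at 209 and 234 in uba2c against 799 and 771 in Col-0 (log2 fold change −1.83, limma adjusted p = 2.64e-06). It shares 277 bases with the gene mMDH2 on the same strand, and what this adds to its count was not tested. Leaf photosynthesis markers reached 366025 (LHCB1.3 in Col-0 replicate 2), and all 13 root markers had reads in both genotypes. Over all genes, 34.8% of 22439 tested genes passed a false discovery rate (FDR) of 0.05 in limma, 17.4% as higher and 17.4% as lower in uba2c.

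Within the 2 families the uba2c seedlings had more RNA of a few genes and less of many. Of the 46 members tested, 8 rose (17.4%, against a background of 17.4% of all genes) and 16 fell (34.8%, against a background of 17.4%), with 22 past neither call. The median log2 fold change was −0.10 for the members and −0.00 for all genes tested. Well-read genes pass the test more readily. Among genes with a mean adjusted count of at least 100, 7 of 36 members rose (19.4%, against 22.4% of all such genes) and 12 fell (33.3%, against 19.4%). At least 2-fold changes were rare among members and among all genes. Of the 46 members 2 were so much higher and 1 lower, against 2.29% and 3.83% of all genes. The lower one, XTH25, had 3 reads in uba2c. Both genotypes lay apart, with no overlap, for 13 members higher in uba2c (33.6% of all genes did so) and 21 lower (34.5% of all genes). In edgeR the same 24 members passed, 8 higher (background 18.8%) and 16 lower (background 18.7%). After a correction for GC content and gene length 12 members rose and 16 fell. EXPA11, XTH17, XTH24 and XTH27 were added as higher, EXPB3 was added as lower and XTH6 was lost. Over all genes this correction moved the calls from 3908 to 4857 higher and from 3901 to 3639 lower. When either uba2c library was left out, limma called 0 genes, although 22 and 23 members had an unadjusted p under 0.05. In edgeR the calls in those fits were 5 higher and 7 lower without uba2c replicate 1, and 5 and 9 without uba2c replicate 2. The calls lost in both were EXPA9, EXPA14, EXPA16, EXPA17, EXLB1, XTH6, XTH20, XTH21, XTH25 and XTH30, and without replicate 1 also XTH7 and XTH18.

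**Figure D1:**
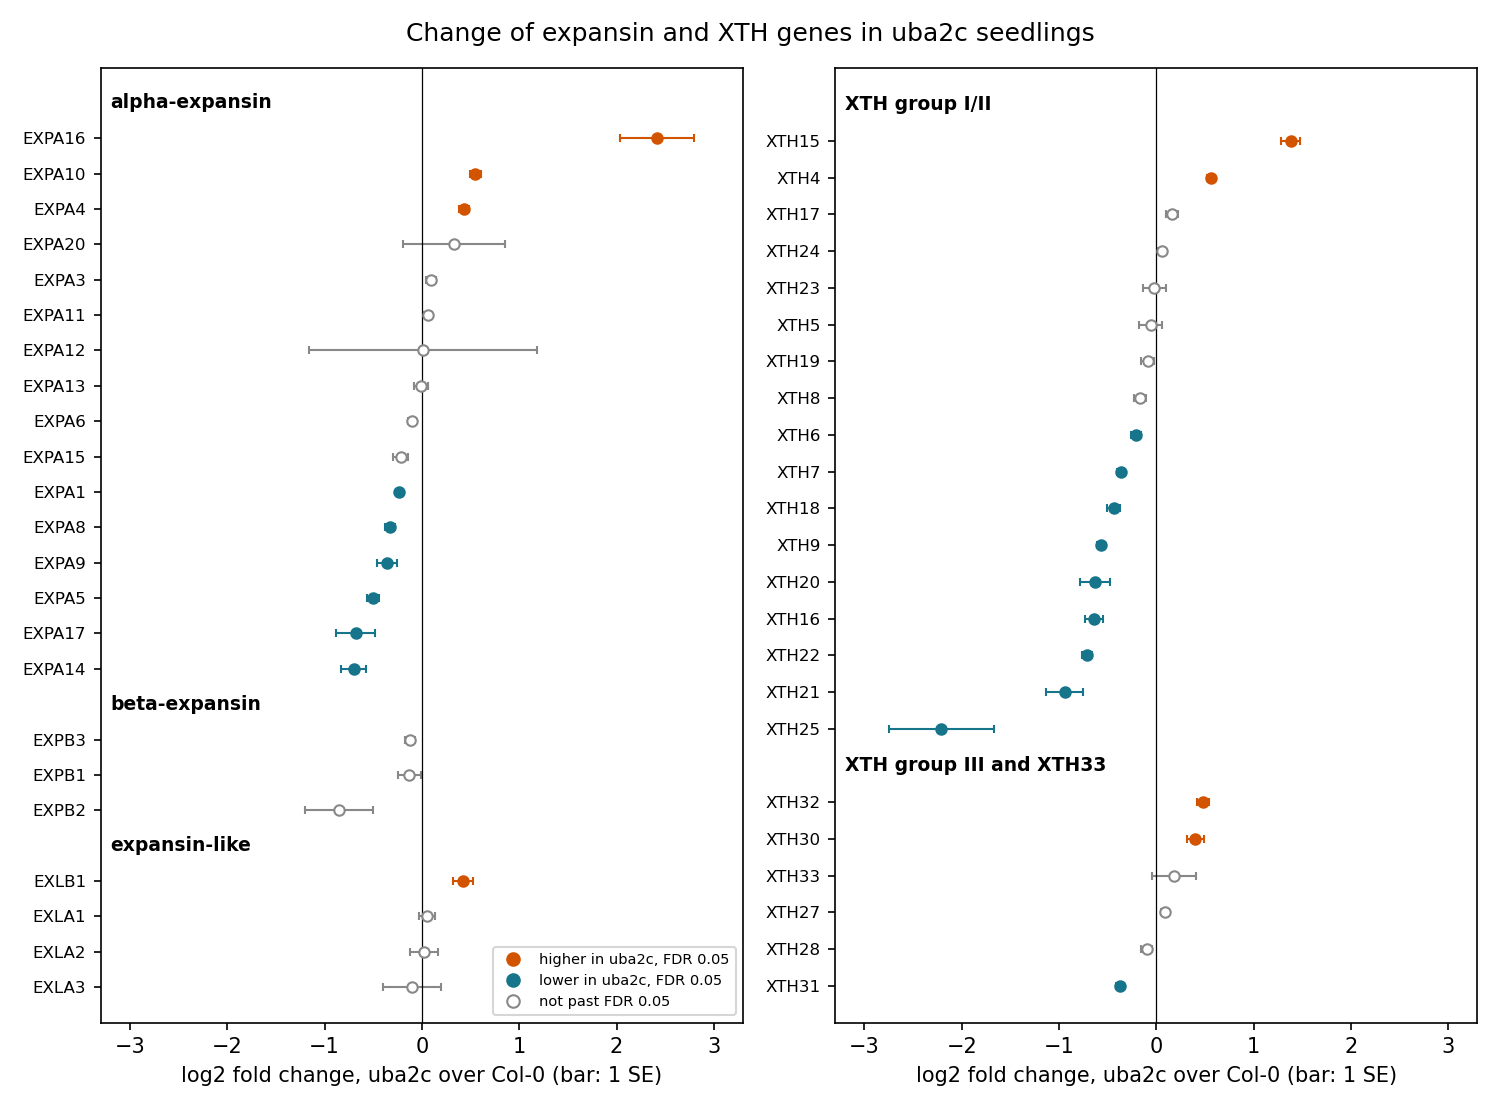
Log2 fold change of each tested member, uba2c over Col-0, with 1 standard error (SE) as the bar (n = 2 libraries a genotype). Filled points passed an FDR of 0.05 in limma, 8 higher and 16 lower in uba2c, and EXPA16, XTH15 and XTH25 lie farthest from 0.

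The summed level of the members was nearly equal in both genotypes, while single members took different shares of it. Over all 47 members the adjusted counts summed to 45323 and 45967 in uba2c and to 46634 and 46138 in Col-0. The sums of the 2 families differed in direction, although the median log2 fold change was −0.10 in each. Of the expansins and expansin-like genes 4 rose and 6 fell, and of the XTHs 4 rose and 10 fell (17.4% of all genes each way). Expansins and expansin-like genes summed to 20745 and 21836 in uba2c, against 23050 and 22883 in Col-0. XTHs summed to 24578 and 24131 in uba2c, against 23584 and 23255 in Col-0. The mean of XTH4 alone rose by 2872, more than the whole XTH sum did. The 8 members that rose summed to 13436 and 13133 in uba2c against 9020 and 8961 in Col-0, a gain of 4294 in the mean. The 16 that fell summed to 17146 and 17523 in uba2c against 22424 and 22191 in Col-0, and together they fell by 4973. XTH4 alone made up 2872 of the gain, while the largest losses came from EXPA1 (fell by 1049) and EXPA8 (fell by 967). These sums were not tested, and those of the members that rose or fell follow the calls by construction.

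Levels of different genes are compared per kilobase (kb) of exon. XTH4 held 18.4% and 17.1% of the members' summed level per kb in uba2c, against 11.6% and 11.8% in Col-0. EXPA1 held 11.8% and 11.9% in uba2c, against 13.6% and 13.8% in Col-0. XTH4 thus ranked first and EXPA1 second in uba2c, and they stood in the other order in Col-0. EXPA8, XTH24 and XTH7 followed in both genotypes, and the 5 together carried 50.8% and 50.4% of the level in uba2c and 49.7% and 49.5% in Col-0. In all 10 members averaged at least 1000 per kb, and 2, EXPA2 and EXPA12, under 1.

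**Figure D2:**
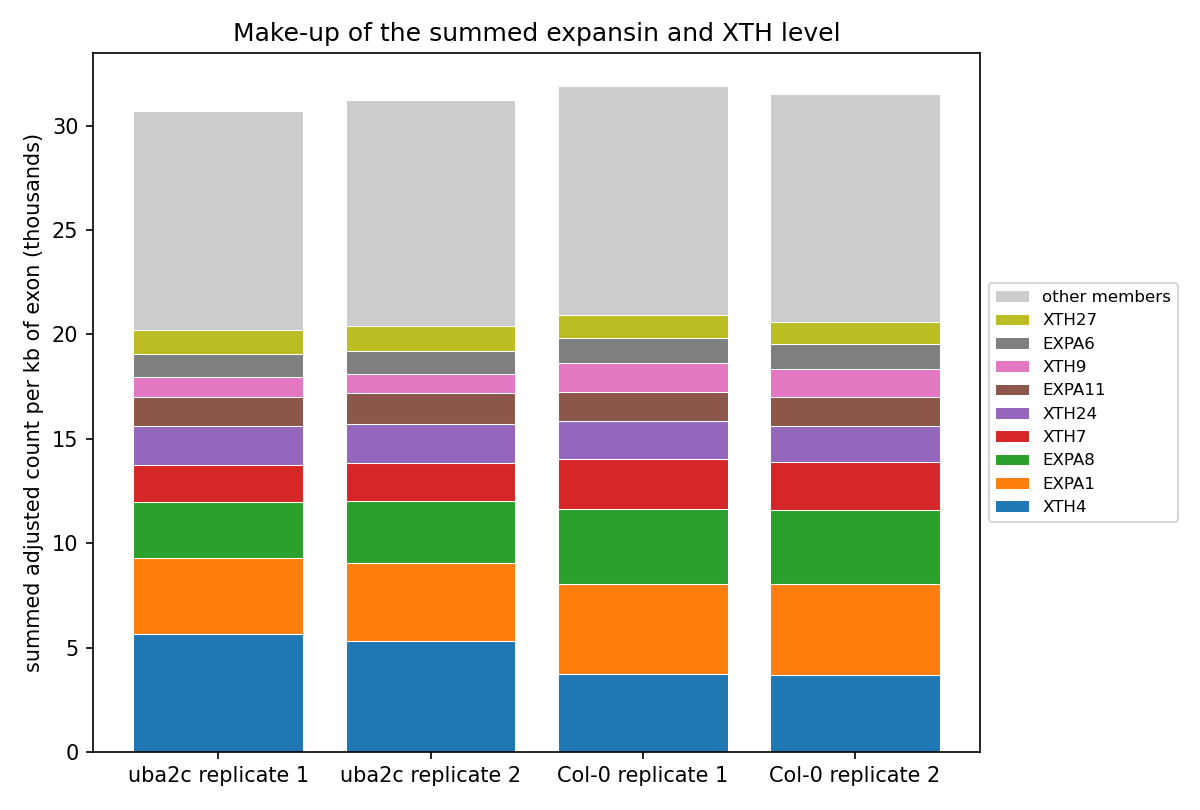
Summed adjusted counts per kb of exon of the 47 members in each library, stacked by gene, with the 9 highest members shown singly. The bars reach 30714 and 31215 in uba2c and 31893 and 31529 in Col-0, and the XTH4 segment is the part that is visibly taller in uba2c.

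The upstream DNA of some members that rose or fell is given from RefSeq (TAIR10.1), as the 250 bases before the annotated gene start. Shown are 4 members that rose, with the largest rises and XTH4 among them, and 3 that fell, the most abundant expansin EXPA1 with EXPA5 and XTH25. EXPA8, XTH9, XTH7, XTH22 and XTH31 fell by more adjusted counts than EXPA5 and XTH25. They are not shown and, unlike the 3 shown, hold none of the motifs marked below in these 250 bases. Of all members that fell, only EXPA1, EXPA5, XTH6, XTH20 and XTH25 hold such a motif there, so the 3 shown are not typical. Each sequence is written 5′ to 3′ on the strand of its gene. Lower case is sequence without a match, and capitals mark matches on either strand to CACGTG (the G-box), CGTGTG and CGTGCG (elements known to bind brassinosteroid factors), and TGTCTC and TGTCGG (elements known to bind auxin response factors). The G-box and CGTGTG share 4 bases where they run together.
EXPA16 (chr3:20576250-20576499, minus strand): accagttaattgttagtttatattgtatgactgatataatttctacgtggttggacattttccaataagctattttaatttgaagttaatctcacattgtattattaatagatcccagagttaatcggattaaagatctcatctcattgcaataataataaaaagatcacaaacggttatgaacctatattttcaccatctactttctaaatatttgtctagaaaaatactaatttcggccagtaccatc
XTH15 (chr4:8138393-8138642, minus strand): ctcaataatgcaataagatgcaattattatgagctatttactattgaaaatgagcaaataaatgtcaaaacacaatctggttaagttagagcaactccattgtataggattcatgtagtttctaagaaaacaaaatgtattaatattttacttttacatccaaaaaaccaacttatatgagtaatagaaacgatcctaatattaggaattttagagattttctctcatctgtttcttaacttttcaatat
XTH4 (chr2:2763199-2763448, plus strand): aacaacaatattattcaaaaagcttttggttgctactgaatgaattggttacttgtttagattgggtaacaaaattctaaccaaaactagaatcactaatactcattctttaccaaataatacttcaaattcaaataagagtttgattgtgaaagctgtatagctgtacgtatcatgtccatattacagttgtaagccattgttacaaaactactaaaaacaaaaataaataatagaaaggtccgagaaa
EXPA10 (chr1:9259182-9259431, plus strand): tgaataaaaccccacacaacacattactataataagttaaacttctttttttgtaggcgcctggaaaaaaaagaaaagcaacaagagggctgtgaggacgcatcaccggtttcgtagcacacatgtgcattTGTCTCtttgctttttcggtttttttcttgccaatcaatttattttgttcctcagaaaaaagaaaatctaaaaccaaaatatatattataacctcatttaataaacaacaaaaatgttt
EXPA1 (chr1:26141476-26141725, plus strand): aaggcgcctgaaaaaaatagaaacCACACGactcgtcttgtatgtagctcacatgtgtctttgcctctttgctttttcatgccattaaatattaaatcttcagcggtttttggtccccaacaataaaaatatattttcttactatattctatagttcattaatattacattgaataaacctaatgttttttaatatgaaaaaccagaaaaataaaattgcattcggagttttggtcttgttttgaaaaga
EXPA5 (chr3:11013452-11013701, minus strand): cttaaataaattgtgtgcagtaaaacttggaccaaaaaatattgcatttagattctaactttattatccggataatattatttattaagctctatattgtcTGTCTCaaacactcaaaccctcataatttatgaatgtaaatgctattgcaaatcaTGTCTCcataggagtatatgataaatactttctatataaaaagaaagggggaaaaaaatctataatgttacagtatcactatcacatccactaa
XTH25 (chr5:23306441-23306690, minus strand): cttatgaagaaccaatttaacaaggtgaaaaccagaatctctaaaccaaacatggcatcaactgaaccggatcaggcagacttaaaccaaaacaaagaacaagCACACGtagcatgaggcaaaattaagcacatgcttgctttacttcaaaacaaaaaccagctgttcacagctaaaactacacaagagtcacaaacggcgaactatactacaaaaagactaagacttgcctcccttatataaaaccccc

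The motifs were counted in windows of 250 bases before to 50 after the start. CACGTG was in 0 of 8 promoters of members that rose, 0 of 16 of those that fell and 7.68% of 27443 protein-coding genes. CGTGTG was in 0 of 8 and 2 of 16, EXPA1 and XTH25, against 6.52% of all, and in 7 of the 47 members as a whole (14.9%). TGTCTC was in 1 of 8, EXPA10, and 4 of 16, EXPA5, EXPA8, XTH6 and XTH21, against 14.2% of all. TGTCGG was in 0 of 8 and 2 of 16, XTH20 and XTH31, against 5.12% of all, and CGTGCG was in none of the 24 and in 1.96% of all. In the sequences printed, CGTGTG appears as its reverse complement CACACG in EXPA1 and XTH25, TGTCTC appears in EXPA10 and EXPA5, and EXPA16, XTH15 and XTH4 hold none of the 5 motifs. A match describes these letters in this window and no more.

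Alpha-expansins, the expansins proper of dicot walls, had 3 that rose and 6 that fell among 16 tested, where 17.4% of all genes passed in each direction. EXPA16 (AT3G55500, chromosome 3 from 20574752 to 20576249, minus strand) was the member that rose most. It had 82.6 and 101 adjusted counts in uba2c, against 26.3 and 10.5 in Col-0. Both uba2c libraries lay above both Col-0 libraries, and the Col-0 libraries differed from each other more than 2-fold. The log2 fold change was 2.42 (SE 0.38, limma adjusted p = 0.00213), a 5.34-fold rise, and the call was lost in edgeR without uba2c replicate 1 (adjusted p = 0.0596) or uba2c replicate 2 (0.0740).

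EXPA10, known for its part in leaf and petiole growth, had 944 and 1001 in uba2c and 638 and 689 in Col-0. EXPA4 had 1452 and 1539 in uba2c and 1081 and 1138 in Col-0. In both genes the uba2c libraries lay above the Col-0 libraries with no overlap, by 1.46-fold for EXPA10 and 1.35-fold for EXPA4 (limma adjusted p = 3.08e-04 and 4.67e-04).

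The pair of alpha-expansins with the highest levels, EXPA1 and EXPA8, both fell. EXPA1 (AT1G69530, chromosome 1 from 26141726 to 26143538, plus strand), known from guard cells and growing leaves and the most abundant expansin here, had 5623 and 5741 in uba2c, against 6729 and 6732 in Col-0. EXPA8, the next in level, had 3586 and 3944 in uba2c, against 4762 and 4701 in Col-0. Their log2 fold changes were −0.24 (SE 0.03, limma adjusted p = 8.69e-04) and −0.33 (SE 0.05, limma adjusted p = 0.00134). EXPA5, linked to brassinosteroid-dependent growth and much lower in level, also fell, with 569 and 596 in uba2c, against 807 and 843 in Col-0 (log2 fold change −0.50, limma adjusted p = 3.49e-04).

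EXPA14, EXPA17 and EXPA9 fell as well. EXPA14 had 80.8 and 80.4 in uba2c, against 135 and 128 in Col-0 (log2 fold change −0.70, limma adjusted p = 0.00375). EXPA17, which acts in lateral root emergence, had 36.6 and 34.3 in uba2c, against 62.1 and 52.3 in Col-0 (−0.68, limma adjusted p = 0.0299). EXPA9 had 259 and 215 in uba2c, against 302 and 301 in Col-0 (−0.36, limma adjusted p = 0.0299). The groups did not overlap for any of the 3, but DESeq2 did not call EXPA9 (adjusted p = 0.0955) or EXPA17 (0.167).

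The other alpha-expansins passed neither call. EXPA3, EXPA6 and EXPA11 were well read, between 1733 and 2000 adjusted counts in every library, with log2 fold changes of 0.09, −0.10 and 0.06. EXPA13 (−0.01) and EXPA15 (−0.22, limma adjusted p = 0.0639) lay lower, between 290 and 430. EXPA20 had 2.88 to 5.89 and overlaps a gene on the opposite strand over most of its length. EXPA12 had 2 reads in all in each genotype, and EXPA2, known from germinating seeds, had 1 read in uba2c and 2 in Col-0 and was the member not tested.

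Among beta-expansins 0 of 3 passed in limma, edgeR or DESeq2, and 2 had an unadjusted p under 0.05. EXPB3, the most abundant of the 3, had 1154 and 1216 in uba2c, against 1305 and 1274 in Col-0 (log2 fold change −0.12, limma adjusted p = 0.0776). EXPB1 was at −0.13, and EXPB2 had 10.6 and 7.83 in uba2c and 19.4 and 14.5 in Col-0 (−0.85, limma adjusted p = 0.0987). EXPB2 did not overlap between genotypes, yet its 95% interval ran from −1.66 to −0.03.

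Expansin-like genes resemble expansins in sequence, and whether they loosen walls is not established. EXLB1 rose, with 261 and 291 in uba2c, against 219 and 194 in Col-0 (log2 fold change 0.42, limma adjusted p = 0.0145). Without Col-0 replicate 2 it did not pass in edgeR (adjusted p = 0.0617). The EXLA genes overlapped between genotypes. EXLA1 had 267 and 270 in uba2c and 271 and 248 in Col-0 (log2 fold change 0.05, 95% interval −0.14 to 0.24), EXLA2 was at 0.02 and EXLA3, a near neighbour of EXLA1 on chromosome 3, was at −0.10.

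Among XTHs of groups I and II, which join xyloglucan chains, 2 rose and 9 fell of 17 tested, against 17.4% of all genes in each direction. XTH4 (AT2G06850, chromosome 2 from 2763449 to 2765743, plus strand), known from stems and wood and the most abundant member in uba2c, had 9120 and 8604 in uba2c, against 5995 and 5985 in Col-0. The Col-0 libraries were nearly equal and both uba2c libraries stood well above them. The mean was 8862 ± 365 in uba2c and 5990 ± 7.26 in Col-0 (SD, n = 2 each). On the log2 scale the fold change was 0.56 with an SE of 0.04 (limma adjusted p = 2.48e-05). It took 33.6% and 32.2% of the summed level per kb of XTH members in uba2c, against 22.6% and 22.9% in Col-0.

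XTH15 (AT4G14130, chromosome 4 from 8137020 to 8138392, minus strand), one of the XTHs known to respond to shade in petioles, had 471 and 477 in uba2c, against 199 and 166 in Col-0. Both uba2c libraries exceeded both Col-0 libraries, a 2.60-fold rise (1.38 on the log2 scale, SE 0.10, limma adjusted p = 3.33e-05). It shares 382 bases with AT4G14120 on the opposite strand, and the sources do not state whether counting used strand. AT4G14120 had 24.1 and 17.6 in uba2c and 34.0 and 28.1 in Col-0 (limma adjusted p = 0.141) and passed neither call. What the overlap adds to the XTH15 count was not tested.

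The other XTHs studied in petiole shade responses did not rise in limma, edgeR or DESeq2. XTH9, known from shoot apices and elongating internodes, had 1469 and 1384 in uba2c, against 2132 and 2102 in Col-0 (log2 fold change −0.57, limma adjusted p = 5.56e-05). XTH16 had 281 and 241 in uba2c, against 412 and 398 in Col-0 (−0.64, limma adjusted p = 0.00122). XTH17 had 442 and 462 in uba2c and 406 and 403 in Col-0 (0.16, limma adjusted p = 0.0892), and passed after the GC and length correction (adjusted p = 0.00530). XTH19 was at −0.09, with overlapping groups.

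XTH22, known as TCH4, the touch gene that also responds to brassinosteroid and auxin, had 834 and 766 in uba2c, against 1299 and 1317 in Col-0. Both uba2c libraries were well below both Col-0 libraries, by −0.71 on the log2 scale with an SE of 0.05 (limma adjusted p = 4.95e-05). Its neighbour XTH25 lies 565 bases away on the same strand of chromosome 5, and had 1 and 2 reads in uba2c against 9 and 8 in Col-0. The ratio of reads for XTH25, uba2c over Col-0, was 0.175 (95% exact interval 0.0330 to 0.607, counting error only), with limma adjusted p = 0.0159. DESeq2 gave XTH25 no adjusted p-value, and limma with values of at least 10 in at least 2 libraries did not call it. The same cluster holds the root hair genes XTH12 and XTH13, which fell by 1.82 and 2.09 on the log2 scale.

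A second cluster on chromosome 4 holds XTH24, XTH18 and XTH19 in this order on the minus strand, with gaps of 5161 and 1500 bases. XTH18 fell, with 299 and 308 in uba2c, against 414 and 413 in Col-0 (log2 fold change −0.44, limma adjusted p = 0.00173). XTH24, known as MERI5 from meristem tissue, had 2215 and 2249 in uba2c and 2189 and 2107 in Col-0 (0.06, 95% interval −0.04 to 0.15), and XTH19 had 566 and 606 in uba2c and 589 and 658 in Col-0 (−0.09, 95% interval −0.25 to 0.08). XTH18 therefore differed from its neighbours in call, and the difference between them was not tested. XTH18 and XTH19 are close copies, and 1.70% and 1.77% of their 50-base exon windows occur elsewhere in the genome, as do 7.82% of those of XTH21.

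XTH7, XTH6, XTH20 and XTH21 also fell. XTH7, the highest of these, had 2293 and 2379 in uba2c, against 3069 and 2916 in Col-0 (log2 fold change −0.36, limma adjusted p = 4.85e-04). XTH21, which supports primary root growth, had 36.6 and 33.3 in uba2c, against 61.0 and 74.7 in Col-0 (−0.94, limma adjusted p = 0.00748). XTH20 had 60.6 and 64.8 in uba2c, against 103 and 92.0 in Col-0 (−0.63, limma adjusted p = 0.0134). XTH6 had 803 and 813 in uba2c, against 943 and 925 in Col-0 (−0.21, limma adjusted p = 0.0115). The calls of XTH6 and XTH20 were lost in DESeq2 (adjusted p = 0.0806 and 0.0788), and that of XTH6 also after the GC and length correction (0.0624). XTH5 (−0.06), XTH8 (−0.17) and XTH23 (−0.02) passed neither call.

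In group III with XTH33, 2 of 6 rose and 1 fell, beside 17.4% of all genes in each direction. XTH31 and XTH32, the XTHs known to hydrolyse xyloglucan rather than join it, moved in opposite directions. XTH32 had 616 and 638 in uba2c, against 460 and 439 in Col-0 (log2 fold change 0.48, limma adjusted p = 6.76e-04). XTH31, known from roots and aluminium tolerance, had 914 and 922 in uba2c, against 1184 and 1187 in Col-0 (−0.37, limma adjusted p = 5.38e-04). XTH30 had 491 and 482 in uba2c, against 401 and 340 in Col-0 (0.40, limma adjusted p = 0.00907). XTH27, known from leaf veins and the most abundant of this group, had 1761 and 1808 in uba2c and 1703 and 1652 in Col-0 (0.09, limma adjusted p = 0.132), XTH28 was at −0.10, and the membrane-bound XTH33 at 0.18.

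**Figure D3:**
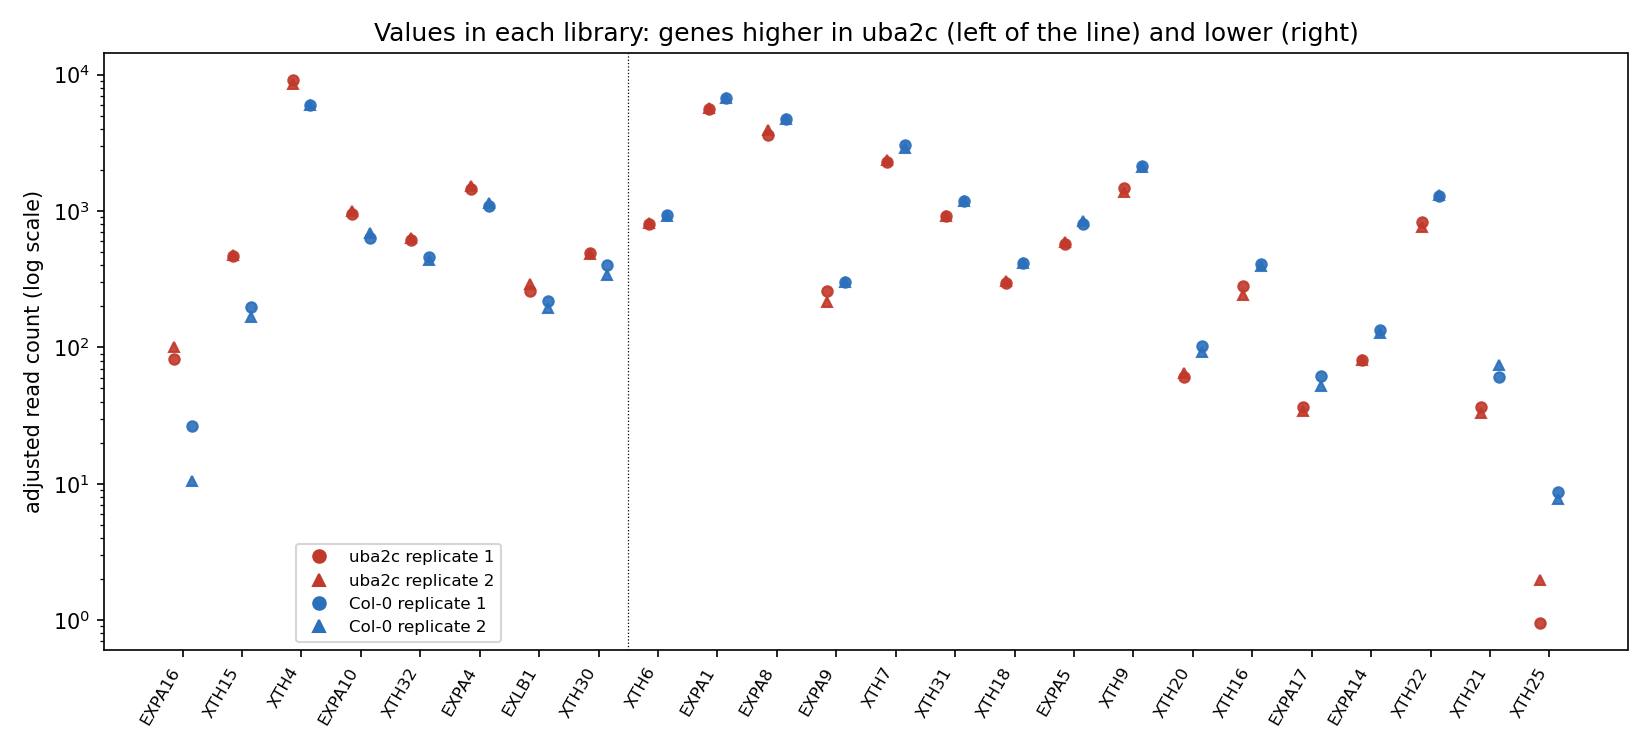
Adjusted counts on a log axis in each library for the 24 members past an FDR of 0.05, uba2c in red left of Col-0 in blue. No member among them overlaps between genotypes, which follows largely from choosing them by this test. Over all genes 33.6% lay apart as higher in uba2c and 34.5% as lower. Levels run from 0.951 for XTH25 in uba2c replicate 1 to 9120 for XTH4.

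Several members that fell, among them EXPA17, XTH18, XTH20 and XTH21, are known from roots, and root markers were lower in the same libraries. XTH19, a close copy of XTH18, and XTH17 passed neither call in limma (log2 fold changes −0.09 and 0.16). Of the 13 root markers 10 fell and 1 rose, with a summed level of 3625 and 3601 in uba2c against 5296 and 5712 in Col-0, and a median log2 fold change of −1.06. The root hair protein gene PRP3 (−1.93) and the root hair wall gene LRX1 (−1.47) fell, PHO1, a phosphate exporter gene, rose (0.49). SMB and FEZ passed neither call, and FEZ had 5 and 0 reads in uba2c and 3 and 3 in Col-0. The 6 root hair expansins and XTHs fell in every case, to 544 and 559 in sum in uba2c against 2165 and 2157 in Col-0. XTH14, the most abundant of them, had 294 and 286 in uba2c, against 1192 and 1167 in Col-0 (−2.02, limma adjusted p = 5.38e-07). The part of root or root hair tissue in the members' changes was not tested.

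Of 14 genes that make and trim the xyloglucan on which XTHs act, 2 rose and 5 fell, where 17.4% of all genes passed in each direction. XYL1, the main alpha-xylosidase that trims xyloglucan, rose, with 12255 and 12301 in uba2c, against 8707 and 9202 in Col-0 (log2 fold change 0.46, limma adjusted p = 6.30e-05). CSLC12, a glucan backbone synthase gene, fell, with 28.9 and 28.4 in uba2c, against 85.4 and 63.8 in Col-0 (−1.35, limma adjusted p = 0.00195). In primary wall cellulose synthesis 1 of 7 rose, the endoglucanase gene KOR1 (0.30, limma adjusted p = 2.79e-04), and 1 fell, CESA5 (−0.23, limma adjusted p = 0.00904). Of the secondary wall cellulose synthase genes 0 of 3 passed in limma, edgeR or DESeq2, and 0 had an unadjusted p under 0.05.

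Of 11 pectin genes tested 1 rose and 5 fell, again beside 17.4% of all genes in each direction. PME5, a pectin methylesterase gene linked to softening at the shoot apex, had 1264 and 1302 in uba2c, against 829 and 790 in Col-0 (log2 fold change 0.66, limma adjusted p = 4.15e-05). PME3, another pectin methylesterase gene, had 3596 and 3863 in uba2c, against 5029 and 5179 in Col-0 (−0.45, limma adjusted p = 1.58e-04). Of the proton pump genes that acidify the wall, AHA2, the main pump of roots, fell (−0.24, limma adjusted p = 7.71e-04), AHA3 rose (0.23, limma adjusted p = 0.00154) and AHA1 was at 0.05.

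Among the listed brassinosteroid and bHLH growth genes, those that passed were higher in uba2c, and a link to the members was not tested. In the brassinosteroid list 5 of 10 rose and 0 fell (17.4% of all genes each way), with a median log2 fold change of 0.19 against −0.00 for all genes. The synthesis gene CPD had 6331 and 6300 in uba2c, against 4509 and 4405 in Col-0 (0.50, limma adjusted p = 2.36e-05), and the transcription factor gene BZR1 had 610 and 605 in uba2c, against 398 and 410 in Col-0 (0.59, limma adjusted p = 2.05e-04). In the bHLH growth module 4 of 5 rose and 0 fell (17.4% of all genes each way). PRE1, which promotes elongation, had 334 and 266 in uba2c, against 143 and 150 in Col-0 (1.02, limma adjusted p = 5.14e-04), and IBH1, which opposes it, had 596 and 622 in uba2c, against 454 and 432 in Col-0 (0.46, limma adjusted p = 9.06e-04).

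**Figure D4:**
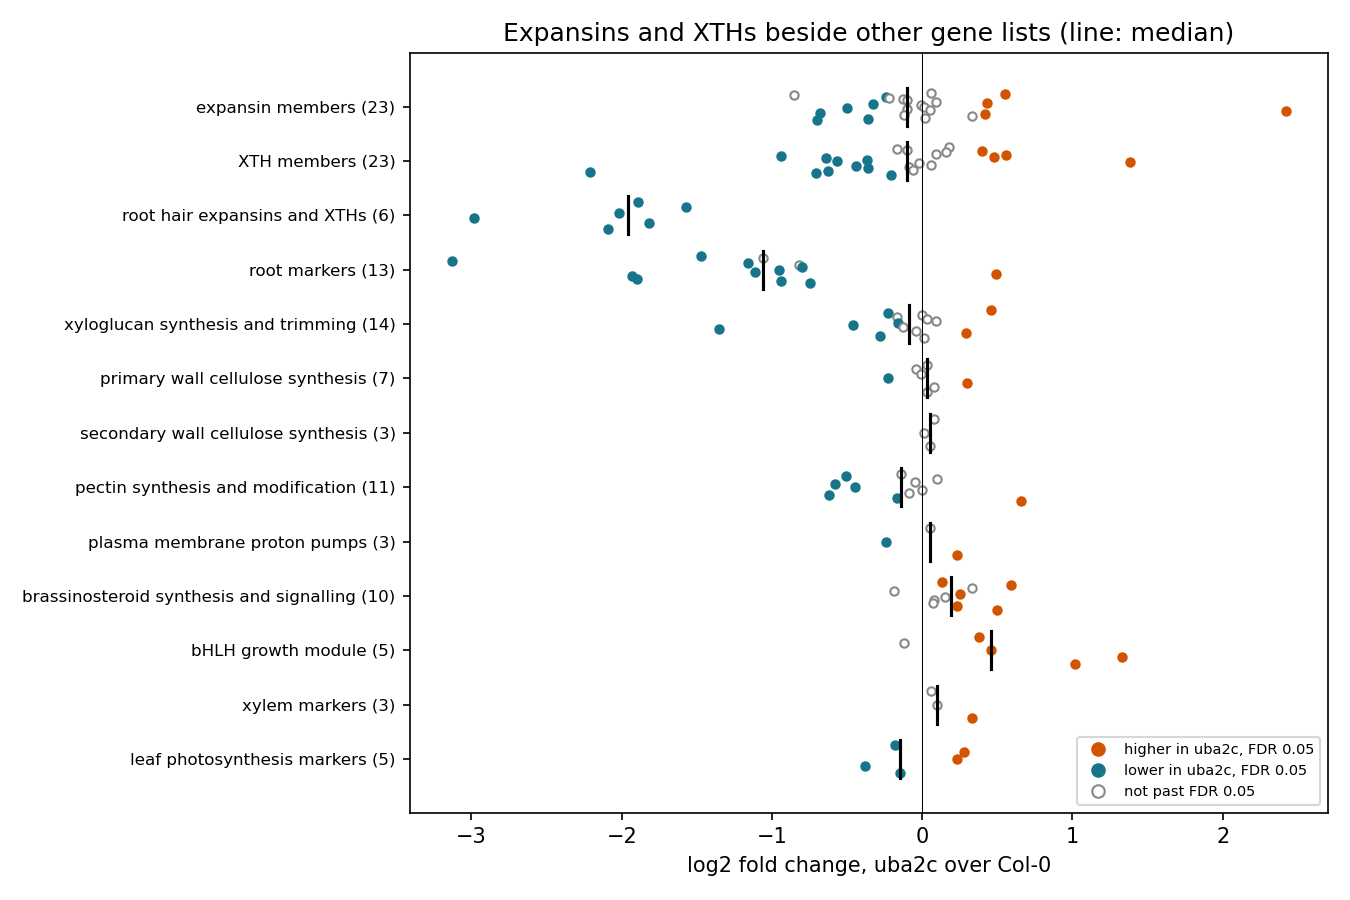
Log2 fold change, uba2c over Col-0, of each tested gene in the expansin and XTH members and in other lists, with the number tested in brackets and the median as a line. The medians are −0.10 for expansins and for XTHs, −1.96 for the root hair members of the same families, −1.06 for root markers and 0.46 for the bHLH growth module.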

How the data were processed

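Total RNA was taken with Trizol and sequenced as single-end reads of 50 bp, per the labels' protocols. The tools named in the submitters' processing notes are edgeR, featureCounts, SAMtools 1.9, HISAT2 and FastQC, and the build is TAIR10. Other versions and the counting options are not stated there. The table the authors deposited holds a normalised signal for each gene, made from its reads after library sizes were equalised. Fitting a size ratio per library (1.02 to 1.04) and 1 dispersion under edgeR's pseudo-count formula matched 100% of deposited values to whole reads within 0.001.

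Values were tested with limma 3.58.1 (R 4.3.3, mean-variance trend, genotype as the term, two-sided) on log2(value + 0.5), keeping genes that reached 1 in at least 2 libraries, with Benjamini-Hochberg adjustment over all genes at 0.05. Fold changes are on this scale, where the added 0.5 alters those of low genes. edgeR 4.0.16 called 18.8% of genes higher and 18.7% lower on the recovered reads, and DESeq2 1.42.0 was also run. Replicates differed by more than sampling noise (chi-square over degrees of freedom 1.97 in uba2c and 1.49 in Col-0). Gene models, lengths and coordinates came from RefSeq (TAIR10.1), and all 32548 identifiers matched. The fit was tested on simulated data.

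Members and lists were chosen with earlier results of these data known. Full values were to be given for members past the FDR with at least 2-fold change and a mean of at least 10, the highest per kb in each subfamily, and family neighbours, and from other lists for up to 2 genes by p. Other genes given with values, and the split at a mean of 100, were chosen after these were seen.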

Additional observations from a re-analysis of the deposited data

How the results depend on the processing

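Among the settings that kept all 4 libraries, members higher in uba2c numbered 8, or 12 after a GC and length correction, and members lower numbered 11 (DESeq2) to 17, with no member called in the opposite direction. DESeq2 called 2514 genes higher and 2417 lower in all, against 3908 and 3901 in limma. Without 1 library, limma called 0 to 7 members higher and 0 to 10 lower, and edgeR 5 to 8 and 7 to 15 (9 without uba2c replicate 2). Over all genes limma called 1947 higher and 1752 lower without Col-0 replicate 1 and 2054 and 1794 without Col-0 replicate 2, and edgeR 1313 and 1189 without uba2c replicate 1, 1253 and 1243 without uba2c replicate 2, and up to 3101 and 3161 without a Col-0 library. Limma called 0 genes without either uba2c library, when 7503 and 7429 genes had an unadjusted p under 0.05 and edgeR called 12 and 14 members. The cause was not tested. Libraries of the same replicate number did not deviate together (r = 0.01 over 19816 genes), and the labels give the number no meaning. With the replicate number as a block, limma called 8 members higher and 17 lower, all 24 calls kept and EXPA15 gained. With the block and the GC and length correction it called 12 and 15. Over all genes it then called 5019 higher and 3754 lower, against 4039 and 3986 with the block alone. With 2 libraries a genotype and counts under 10, as for XTH25 and EXPA20, only large changes can be detected.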

Other observations

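Of the family genes outside the members and the root hair genes, 15 were in the table and 3 reached the level for testing. XTH11 had 21.2 and 22.6 in uba2c and 14.5 and 12.6 in Col-0 (log2 fold change 0.67, limma adjusted p = 0.105), XTH10 was at −0.00 and XTH29 at −0.45. Another 9 had no read in any library.

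Of 4 flower markers tested, 2 fell, where 17.4% of all genes passed as lower. AP3 had 1.92 and 1.96 in uba2c against 17.4 and 21.3 in Col-0 (−3.02, limma adjusted p = 0.00109). AG had 2.89 and 1.96 in uba2c against 6.73 and 14.6 in Col-0 (−1.86, limma adjusted p = 0.0302). The AG call rests on 3 and 2 reads in uba2c and 7 and 15 in Col-0, and DESeq2 did not make it (adjusted p = 0.140). AP1 and LFY had at most 2 reads in any library. SEP3, the highest of the flower markers, had 126 and 121 in uba2c and 150 and 144 in Col-0, and like PI it passed neither call. The xylem marker XCP1 rose, with 871 and 804 in uba2c against 706 and 624 in Col-0 (0.33, limma adjusted p = 0.00923), and XCP2 and VND7 passed neither call. Among leaf photosynthesis markers RBCS1A and RCA rose (0.28 and 0.23, limma adjusted p = 0.00590 and 0.00620), and LHCA1, LHCB1.3 and LHCB5 fell (−0.38, −0.18 and −0.15).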
